A study of Mus musculus with 6 samples.

Results

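The H2 genes are the mouse major histocompatibility complex (MHC) genes, and this report describes the open chromatin around them in preadipocytes of wild type (WT) and HMGN double knockout (DKO) mice. The members are the 45 genes on chromosome 17 whose symbol starts with H2- in the GENCODE M21 annotation of mm10, of 55450 genes in all. A listed summit, which is the position of the highest read pileup in a peak, belonged to the set when it lay in the body of one of these genes or within 10 kb of it. Windows without overlap, of 250 bp to either side, were centred on the best summits of the 6 libraries, which gave 157 H2 sites of 246987 windows in the genome. The test was run on sites with a summit of q under 0.01 in at least 2 libraries, which left 126 H2 sites of 179249. The sites were therefore chosen from measured values, since a stretch is a site only where a summit was listed, and the gene set itself was proposed with earlier results of these data known.

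The samples were primary preadipocytes of inguinal white adipose tissue, assayed by ATAC-seq, in which the transposase Tn5 cuts and tags DNA that is not packed against the enzyme. There were 3 WT and 3 DKO libraries, all at day 0 of culture, before any differentiation medium was added. Both genotypes carried the strain label C57BL/6, and the DKO mice lacked both Hmgn1 and Hmgn2 (Hmgn1-/- and Hmgn2-/-), the genes of 2 proteins that bind nucleosomes. According to the methods of the study the fat came from mice of 8 to 12 weeks, and the cells were grown on collagen coated plates, so the libraries are of cultured cells and not of tissue. No source used here says which animals stand behind which library, so p-values measure the spread between these libraries, which may be technical.

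The libraries listed between 299433 and 299620 summits each, a number set by the authors' cap on the lists, so depth shows in the lowest pileup of a list, which was 8 to 12 reads, and not in its length. DKO replicate 3 had the lowest background level, 2.05 reads against 2.41 to 2.58 in the others. The Hmgn2 promoter window (chromosome 4, 133967752 to 133968252) had fold enrichments of 7.89, 7.53 and 9.45 in WT and was not listed in any DKO library. The Hmgn1 promoter window (chromosome 16, 96127845 to 96128345) was listed in all 6 libraries, so it does not separate the genotypes. Of 12 stromal and preadipocyte markers, 11 had a promoter window in the test, and their summed fold enrichment was 64.1 to 77.5 in WT and 63.2 to 70.1 in DKO. Of 14 leukocyte and antigen presenting cell markers, 8 had a promoter window, listed for 4 genes in each WT library and for 8, 7 and 6 in the DKO libraries. Their summed fold enrichment was 20.3 to 27.9 in WT and 29.0 to 39.8 in DKO, and none of the 8 passed the test. In these sums, as in those of the stromal markers, a gene that was not listed counted as 0. Of the 8, Itgam and Adgre1 entered the test through DKO libraries alone, so the higher DKO sums rest in part on which genes were listed. Ptprc, the pan-leukocyte marker, and the T cell receptor subunits Cd3e and Cd3d were among the markers with no window in either genotype. Itgam, an integrin of myeloid cells, was listed in 0 WT and 3 DKO libraries (4.19, 5.95 and 3.28). Flt3, a receptor of progenitors and dendritic cells, had 4.38 and 4.70 in 2 WT libraries and 6.15, 6.19 and 6.55 in DKO. Adgre1, a macrophage marker, was listed in 0 WT and 2 DKO libraries, and Ms4a1, a B cell marker, in 1 and 3. Lyz2, a lysozyme of myeloid cells, went the other way, with 11.5, 9.42 and 14.9 in WT and 8.15, 9.61 and 9.08 in DKO. Csf1r, listed in all 6 libraries, had values that overlapped, with a log2 change (DKO minus WT) of -0.02. Spi1 was listed in 1 WT and 1 DKO library, with a log2 change of 0.02. Lyz2 and Csf1r were the 2 of the 8 listed in all 6 libraries, and neither was higher in DKO. Over the 8, the log2 change was negative for 2 and positive for 6. The part of leukocytes and antigen presenting cells in the H2 values was not tested.

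Class I MHC molecules are made of a heavy chain and beta2-microglobulin and show peptides from inside the cell to CD8 T cells and natural killer cells. Nearly all nucleated cells carry the classical class I molecules, and interferon raises them. Class II molecules, an alpha and a beta chain, show peptides from outside the cell to CD4 T cells and are made mainly by antigen presenting cells. The complex is the most polymorphic stretch of the mouse genome, and the class I genes of its Q, T and M subregions arose by repeated duplication, so that strains differ in sequence and in gene number and neighbouring copies can be nearly identical. Short reads from such copies may be placed on either one. The 45 members fall into 6 subregions, in chromosomal order K with 3 genes, class II with 12, D with 1, Q with 8, T with 7 and M with 14. Of them 34 are annotated as protein coding and the other 11 as pseudogenes of some kind.

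The promoters of 4 members show elements for which class I promoters are known. A search on both strands covered the letters GGGANTNCC for NF-kappaB, CCAAT for the Y box bound by NF-Y, GAAANNGAA for the interferon response element and TGANTCA for AP-1. The 200 bases before the start site given by RefSeq are printed in the direction of transcription (GRCm38.p6), with every match in capitals. By the GENCODE annotation, 14 bases of the H2-M3 stretch and 5 of the H2-T22 stretch lie in an untranslated region. They are shown as examples of promoters with a summit in all 6 libraries, 1 each from the K, Q, T and M subregions. H2-K1 lies at chr17:34000348-34000547 (minus strand), H2-Q4 at chr17:35379417-35379616 (plus), H2-T22 at chr17:36042743-36042942 (minus) and H2-M3 at chr17:37270034-37270233 (plus).
H2-K1: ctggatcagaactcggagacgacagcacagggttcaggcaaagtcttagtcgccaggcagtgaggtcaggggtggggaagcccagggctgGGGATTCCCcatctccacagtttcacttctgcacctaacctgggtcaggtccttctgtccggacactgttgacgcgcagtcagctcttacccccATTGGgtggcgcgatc
H2-Q4: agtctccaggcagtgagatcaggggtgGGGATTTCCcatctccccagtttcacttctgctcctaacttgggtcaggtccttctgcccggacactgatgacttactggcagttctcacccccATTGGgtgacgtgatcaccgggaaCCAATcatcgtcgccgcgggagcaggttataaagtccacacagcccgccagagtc
H2-T22: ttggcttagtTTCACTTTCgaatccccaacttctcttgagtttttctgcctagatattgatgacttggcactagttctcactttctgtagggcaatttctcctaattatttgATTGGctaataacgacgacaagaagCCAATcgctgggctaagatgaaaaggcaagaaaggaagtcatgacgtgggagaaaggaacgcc
H2-M3: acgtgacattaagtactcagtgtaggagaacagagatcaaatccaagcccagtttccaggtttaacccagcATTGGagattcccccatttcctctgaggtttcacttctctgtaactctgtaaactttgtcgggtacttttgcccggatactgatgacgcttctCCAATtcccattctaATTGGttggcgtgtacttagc

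H2-K1 and H2-Q4 held the NF-kappaB letters and at least 1 CCAAT box in this stretch. H2-T22 held the letters GAAANNGAA and a pair of CCAAT boxes, and H2-M3 held CCAAT boxes alone of the letters searched. Each search covered 1 spelling of an element, so a promoter without a match may hold another spelling of it. RefSeq gave promoters of 300 bases for 35 start sites of H2 genes. H2-K1, H2-DMa and H2-M9 had 2 start sites each, so the 35 are not all separate promoters. The CCAAT letters stood in 31 of these 35, 88.6%, against 37.4% of all 32851 promoters in the table. The NF-kappaB letters stood in 8, 22.9% against 3.95%, the letters GAAANNGAA in 2, 5.71% against 8.56%, and AP-1 in 4, 11.4% against 7.81%. Over the 126 H2 sites in the test the AP-1 share was the lower one, 17.5% against 36.6% of all windows in the test. A match of letters is a description and no site of binding.

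In all 6 libraries a summit was listed within 10 kb of 34 of the 45 genes, which can be a summit of a neighbour, and in the gene body itself for 16 genes. For another 16 genes no library listed a summit in the gene body. The genes H2-Q2, H2-Q3, H2-M10.2, H2-M10.3, H2-M6-ps and H2-M2 had one in 1 to 5 libraries. H2-M10.4, H2-M11, H2-M9, H2-M1 and H2-M10.5 had none in any library, and all 5 lie in the M subregion, where the M10 genes are known for their expression in vomeronasal neurons. The number of H2 summits per library was 195, 221 and 209 in WT and 231, 233 and 227 in DKO, which is 0.0651 to 0.0738% of a list in WT and 0.0758 to 0.0778% in DKO. The groups did not overlap at this limit of 10 kb. They overlapped in gene bodies alone, with 61 to 76 in WT and 68 to 71 in DKO. Within 2 kb they overlapped too, with 106 to 121 and 119 to 124. Most of the difference at 10 kb came from the T subregion, which had 39, 46 and 45 summits in WT and 54, 58 and 57 in DKO. The M subregion had 27 to 31 in WT and 33 to 38 in DKO, while K (27 to 30 and 27 to 29) and class II (68 to 76 and 67 to 75) overlapped. No test was made on these totals, because the lists are capped and the members were chosen with results known.

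Of the classical class I genes, H2-K1 and H2-D1, which encode the heavy chains that present peptides to CD8 T cells, were open at their promoters in both genotypes. The H2-K1 window (chromosome 17, 34000153 to 34000653, 56 bp from the start site) had fold enrichments of 23.2, 15.6 and 28.2 in WT and 17.7, 17.7 and 21.7 in DKO. The fold enrichment is the pileup at the summit over the local background that the peak caller estimated. The H2-D1 window (35262703 to 35263203) had 12.7, 11.1 and 11.3 in WT and 13.5, 9.28 and 10.6 in DKO. Values of WT and DKO overlapped at both promoters, with limma adjusted p of 0.836 and 0.896 over all windows. H2-K2, a pseudogene beside H2-K1, had 8.62, 9.29 and 10.2 in WT and 9.68, 8.46 and 11.1 in DKO. H2-Ke6 carries an MHC symbol but encodes a steroid dehydrogenase. Its promoter had 7.86, 6.51 and 8.27 in WT and 5.94, 6.48 and 5.57 in DKO, with a limma adjusted p of 0.750.

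The Q genes, nonclassical class I genes next to H2-D1, held the best ranked H2 summits together with H2-DMa. H2-Q4 had fold enrichments of 23.7, 19.2 and 22.5 in WT and 21.4, 22.1 and 20.8 in DKO at its promoter. H2-Q7, which encodes a Qa-2 molecule, had 23.9, 23.03 and 32.3 in WT and 21.6, 25.3 and 26.1 in DKO. Ranked by p, its summit was at rank 1332 to 3059 in WT and 733 to 3006 in DKO. H2-Q6, a close copy, had 21.2, 17.8 and 25.2 in WT and 18.2, 20.4 and 15.1 in DKO, and H2-Q5, annotated as a polymorphic pseudogene, had 29.8, 21.6 and 30.3 against 23.1, 25.9 and 21.4. The genotypes overlapped at each of these 4 promoters. H2-Q10, known for a secreted class I molecule made in liver, had 9.05, 9.11 and 10.3 in WT and 6.43, 9.64 and 8.19 in DKO at a window 835 bp from its start site. H2-Q1 and H2-Q3 had 3.13 to 5.28 where they were listed.

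How far the values of the Q promoters belong to 1 gene is limited by sequence. Of the 452 words of 50 bases in a window, 50 bases being the read length, the share found once in the mm10 reference was 15.04% at H2-Q5, 30.1% at H2-Q6 and 45.6% at H2-Q7, against 100% at H2-K1, H2-D1 and H2-Q4. The H2-Q6 window and the H2-Q5 window were 99.2% identical. A stretch of 120 bases from each is printed to show how few positions tell them apart, with the differing bases in capitals, from chr17:35424728-35424847 for H2-Q6 and chr17:35393977-35394096 for H2-Q5 (mm10, plus strand).
H2-Q6: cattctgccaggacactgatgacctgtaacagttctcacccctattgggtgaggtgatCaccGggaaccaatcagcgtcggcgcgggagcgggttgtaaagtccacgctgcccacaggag
H2-Q5: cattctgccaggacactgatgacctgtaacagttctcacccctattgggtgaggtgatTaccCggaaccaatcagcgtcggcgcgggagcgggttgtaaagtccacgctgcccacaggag

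With 2 differing positions in 120 bases, many reads taken alone fit both copies, although a mate elsewhere can place a pair of reads. The sources used here do not say how reads that fit several places were treated. Summed over H2-Q5 and H2-Q6, the summit pileup was 231, 181 and 263 reads in WT and 210, 223 and 142 in DKO, which overlap as the single promoters do.

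Of the 12 class II genes, 8 had a promoter window in the test, and H2-Pa, H2-DMb2, H2-Eb2 and H2-Ea-ps had none. H2-Ab1 and H2-Aa, the beta and alpha chain of the A molecule, had fold enrichments of 18.6, 16.6 and 18.2 and of 13.7, 11.9 and 13.8 in WT. In DKO they had 16.5, 17.6 and 15.6 and 9.75, 9.09 and 10.9. H2-Eb1, the beta chain of the E molecule, whose alpha chain gene H2-Ea-ps is a pseudogene in this reference, had 15.5, 9.46 and 13.6 in WT and 13.5, 12.7 and 14.6 in DKO. H2-DMa and H2-DMb1 encode the chaperone that loads class II molecules with peptide. The H2-DMa window (34135318 to 34135818) had 20.5, 19.6 and 20.8 in WT and 20.8, 18.5 and 18.8 in DKO, and the H2-DMb1 window had 23.3, 19.4 and 29.7 against 21.98, 18.9 and 18.1. H2-Oa and H2-Ob, the chains of the inhibitor of that chaperone, had low fold enrichments. H2-Ob was listed in 3 WT and 2 DKO libraries at 3.38 to 5.48, and H2-Oa in 0 WT and 2 DKO libraries. H2-Pb, a pseudogene, had 4.05, 4.08 and 3.36 in WT and 3.09, 2.78 and 3.17 in DKO. At H2-Aa and H2-Pb every DKO value was below every WT value as listed, but the groups overlapped on the quantile-normalised scale of the test. None of the class II sites passed the test, and the smallest limma adjusted p among the 42 was 0.270. That smallest value was at a site in a UTR of Brd2, a neighbouring gene that encodes a bromodomain protein, where WT had 4.201, 4.30 and 4.02 and DKO had 5.48, 5.96 and 6.57.

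H2-M3, which presents formylated peptides of bacteria and mitochondria, was the 1 M gene with a strong promoter. It had 15.1, 13.9 and 17.9 in WT and 13.1, 16.4 and 13.7 in DKO. Across the 16 H2 genes outside T whose promoter window was listed in all 6 libraries, the log2 change ran from -0.23 to 0.26, and the smallest limma adjusted p was 0.465. On the quantile-normalised scale the genotypes did not overlap at H2-Ke6, 1 of these 16. A site near H2-M5 (36996994 to 36997494, nearest to the start of Zfp57), picked out after its values were seen, was higher than the H2-M3 promoter in every library, with 17.8, 14.6 and 22.02 in WT and 18.5, 18.0 and 14.5 in DKO. The largest positive log2 change of the subregion, which did not pass the test, was at a site near H2-M10.6 (36824047 to 36824547), listed at 4.11 in WT replicate 3 alone and at 6.70, 5.67 and 4.92 in DKO (log2 change 1.59 ± 0.39 SE, limma adjusted p = 0.159). A site near H2-M3 in a UTR of Olfr99, an olfactory receptor gene, had 6.13, 7.12 and 5.74 in WT and 3.35, 4.25 and 3.93 in DKO (limma adjusted p = 0.433).

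**Figure D1:**
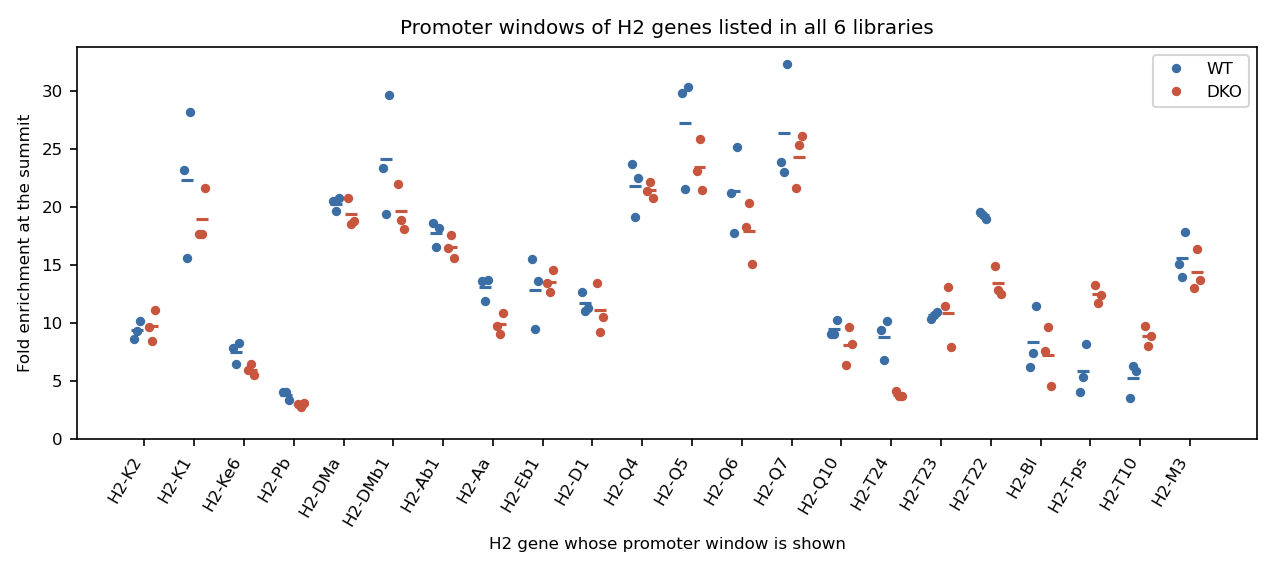
Fold enrichment at the summit (y axis) of the best promoter window of the 22 H2 genes listed in all 6 libraries, in chromosomal order (x axis). Points are libraries, 3 WT and 3 DKO, and bars are the means of 3; As plotted, WT and DKO lie apart at H2-Ke6, H2-Pb, H2-Aa, H2-T24, H2-T22, H2-T-ps and H2-T10 and overlap at the others.

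In the test over all 179249 windows (limma on quantile-normalised log2 fold enrichment, Benjamini-Hochberg adjustment), 0 H2 sites were lower in DKO and 0 were higher at an adjusted p under 0.05, and 23 of 126 had an unadjusted p under 0.05. Over the genome 0.0363% of windows were lower and 0.0234% higher by the same rule, and 11.8% had an unadjusted p under 0.05. When only windows with a summit in all 6 libraries were fitted, 2 of 76 H2 sites were lower in DKO and 3 were higher, beside 0.590% lower and 0.285% higher among all 103986 such windows. All 5 lay in the T subregion. On the quantile-normalised scale, at 9 H2 sites every DKO value was below every WT value, and at 19 every DKO value was above, against 7.67% and 8.76% of all windows. In counts by subregion, groups lay apart at 18 of 29 T sites, 2 of 13 K sites, 4 of 42 class II sites, 0 of 6 D sites, 1 of 17 Q sites and 3 of 19 M sites. Unadjusted p under 0.05 was found at 17 of the 29 T sites and at 6 of the 97 others. The median size of the log2 change, whatever its sign, was 0.86 over the T sites, 0.19 over the H2 sites outside T and 0.24 over all windows. Over sites listed in all 6 libraries, where no value is set at the lowest of a list, it was 0.38 for the 15 T sites, 0.13 for the 61 outside T and 0.16 for all such windows, so the value over the 29 T sites rests in large part on sites not listed in every library. The T sites differed in both directions, 6 apart and lower and 12 apart and higher.

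**Figure D2:**
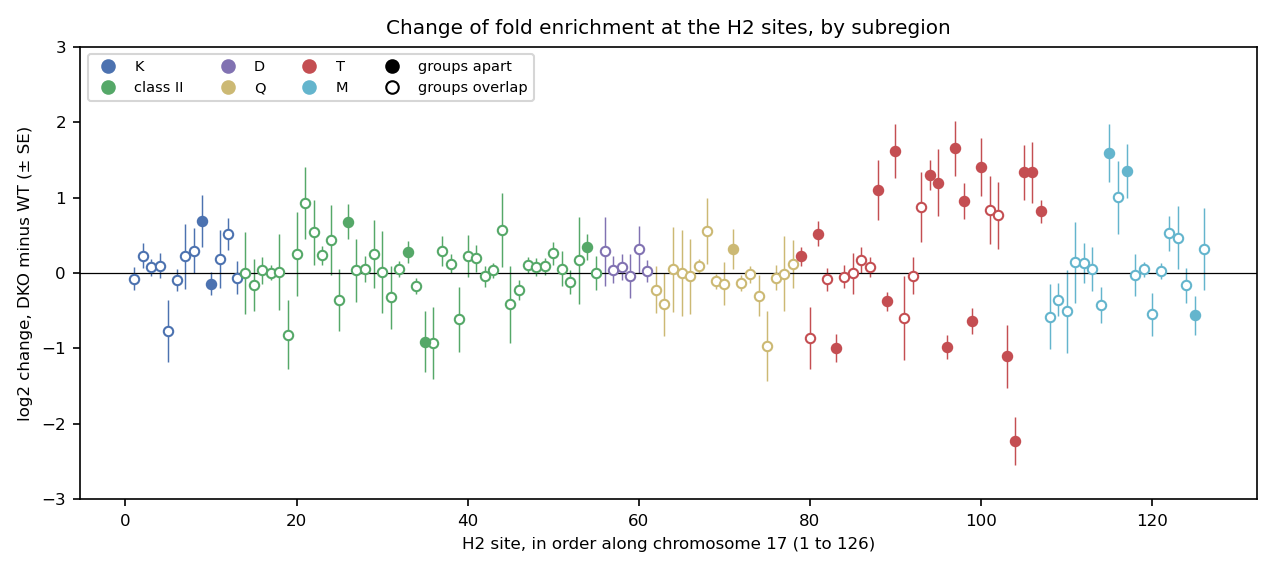
Log2 change of fold enrichment, DKO minus WT (y axis, bars are SE), for the 126 H2 sites in the order of chromosome 17 (x axis), coloured by subregion. Filled points mark sites where the 3 WT and the 3 DKO values do not overlap on the quantile-normalised scale; these are 18 of the 29 T sites and 10 of the 97 others.

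The T subregion runs from H2-T24 to H2-T3 and holds nonclassical class I genes. At the H2-T24 promoter (36020231 to 36020731, 44 bp from the start site) the fold enrichment was 9.43, 6.79 and 10.2 in WT and 4.13, 3.70 and 3.76 in DKO, or 8.81 ± 1.80 and 3.86 ± 0.23 (SD, n = 3 each). Every DKO library was below every WT library. The log2 change was -0.99 ± 0.19 (SE), with a limma adjusted p of 0.121 over all windows and 0.0147 over windows listed in all 6 libraries. The pileup there was 58, 34 and 66 reads in WT and 21, 17 and 14 in DKO, and all words of the window occur once in the reference. H2-T23, whose product presents peptides of class I leader sequences to receptors of natural killer cells, had 10.8, 8.52 and 11.01 in WT and 10.2, 9.09 and 8.83 in DKO at the window on its start site. These values overlapped.

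H2-T22, a class I-like gene whose product is recognised by some gamma delta T cells, had the strongest T promoter. Its fold enrichment was 19.5, 19.3 and 18.95 in WT and 14.96, 12.9 and 12.5 in DKO, -0.38 ± 0.13 (SE) as a log2 change (limma adjusted p = 0.256). Its pileup, however, was 117, 94 and 131 reads in WT and 115, 93 and 71 in DKO, so the genotypes overlapped in reads and were apart only in fold enrichment. Fitted on pileups, the log2 change was -0.08.

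H2-Bl, a polymorphic pseudogene, had 6.24, 7.40 and 11.4 in WT and 7.57, 9.64 and 4.59 in DKO, which overlap. At H2-T-ps, a pseudogene, a window 658 bp from the start site (36110750 to 36111250) had 4.09, 5.41 and 8.22 in WT and 13.3, 11.7 and 12.4 in DKO. The log2 change was the largest of the 3 sites higher in DKO in the second fit, 1.30 ± 0.19 (SE), with a limma adjusted p of 0.0581 over all windows and 0.000452 over windows listed in all 6 libraries. Its pileup was 13, 18 and 27 reads in WT and 71, 61 and 50 in DKO, and fitted on pileups the log2 change was 1.97. The window on the start site of H2-T-ps was not listed in WT replicate 1, had 3.70 and 8.81 in the other WT libraries and 7.10, 8.93 and 6.73 in DKO, where the groups were apart only on the quantile-normalised scale. Between H2-T-ps and H2-T10, in an intron of the gene models BC023719 and Gm7030 (36114262 to 36114762), WT had 13.7, 9.11 and 13.1 and DKO had 6.12, 5.07 and 4.85, -0.98 ± 0.16 (SE) as a log2 change, with limma adjusted p of 0.0800 in the first fit and 0.00796 in the second. Its pileup was 46, 31 and 46 reads in WT and 34, 27 and 19 in DKO, which overlap, and fitted on pileups the log2 change was -0.37 (limma adjusted p = 0.428).

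H2-T10 is annotated as a polymorphic pseudogene in this reference and is the closest relative of H2-T22. Its upstream window (36121405 to 36121905) had 3.58, 6.31 and 5.91 in WT and 9.75, 8.03 and 8.92 in DKO, 0.95 ± 0.24 (SE) as a log2 change, with limma adjusted p of 0.163 in the first fit and 0.0355 in the second. Its pileup was 17, 24 and 29 reads in WT and 66, 50 and 44 in DKO, and fitted on pileups the log2 change was 1.46. With windows of 150 bp to either side, the nearest window had a log2 change of 2.62 (limma adjusted p = 0.0177), so the size depends on the window. A window 112 bp from its start site (36120787 to 36121287) was listed in the 3 DKO libraries, with pileups of 28, 24 and 27 reads, and in no WT library.

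At H2-T3, whose product is the thymus leukemia antigen that binds CD8 on intestinal lymphocytes, some sites were listed in 1 genotype only. A site in its UTR (36186096 to 36186596) had 7.98, 7.96 and 7.07 in WT with pileups of 36, 38 and 28 reads, and was not listed in any DKO library. The log2 change was -2.23 ± 0.32 (SE) with DKO set at the lowest listed value, and the limma adjusted p was 0.0516. The site entered the test through WT libraries alone, so the SE and p rest on no measured DKO value. In an intron of the gene (36187534 to 36188034) the 3 DKO libraries had 4.19, 3.68 and 3.28 and no WT library was listed, with pileups of only 14, 12 and 9 reads. Upstream of the gene (36193452 to 36193952) WT had 7.31, 5.20 and 7.30 and DKO had 11.3, 10.999 and 8.40, 0.82 ± 0.15 (SE) as a log2 change, with limma adjusted p of 0.116 in the first fit and 0.0266 in the second. Its pileups were 30, 21 and 30 reads in WT and 48, 43 and 25 in DKO, which overlap, and the fit on pileups gave 0.74 with a limma adjusted p of 0.202.

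By listing alone, 1 H2 site was found in 3 WT and 0 DKO libraries and 4 in 3 DKO and 0 WT, against 1.23% and 1.14% of all windows. The WT site is the one in the H2-T3 UTR. The DKO sites are those at H2-T10 and in the H2-T3 intron, one near H2-T22 in an intron of Gm6034 (36045098 to 36045598) with pileups of 42, 29 and 20 reads, and one 38 bp from the start of the pseudogene H2-M6-ps (36971184 to 36971684) with 12, 12 and 11. The H2-M6-ps pileups are near the lowest a list can hold, so a site of the same height may be missing from a WT list for its cap alone.

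The 10 kb limit leaves out 6 tested windows that lie shortly beyond it, of which 4 had groups apart and lower in DKO on the quantile-normalised scale, near H2-DMb1, H2-T24, H2-T10 and H2-M10.5, beside 7.67% of all windows. The windows just inside the limit on that side of H2-T10 and H2-T3 (9104 and 9275 bp from the gene) were listed in 0 WT and 2 DKO libraries each. A window 10563 bp from H2-T24 (35994882 to 35995382) was listed in 3 WT and 0 DKO libraries, at 3.33, 2.50 and 3.49 with pileups of 35, 20 and 37 reads. The window 10572 bp from H2-T10 (36131787 to 36132287) had fold enrichments of 9.69, 10.8 and 13.6 and pileups of 35, 37 and 46 reads in WT, and was not listed in any DKO library. It was called in the first fit, with a log2 change of -2.78 ± 0.27 (SE) and a limma adjusted p of 0.00793, where DKO stood at the lowest listed value. The window entered the test through WT libraries alone, so the SE and the call rest on no measured DKO value. These windows are not among the 126 sites counted above, so the counts of H2 sites depend on where the limit is set.

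**Figure D3:**
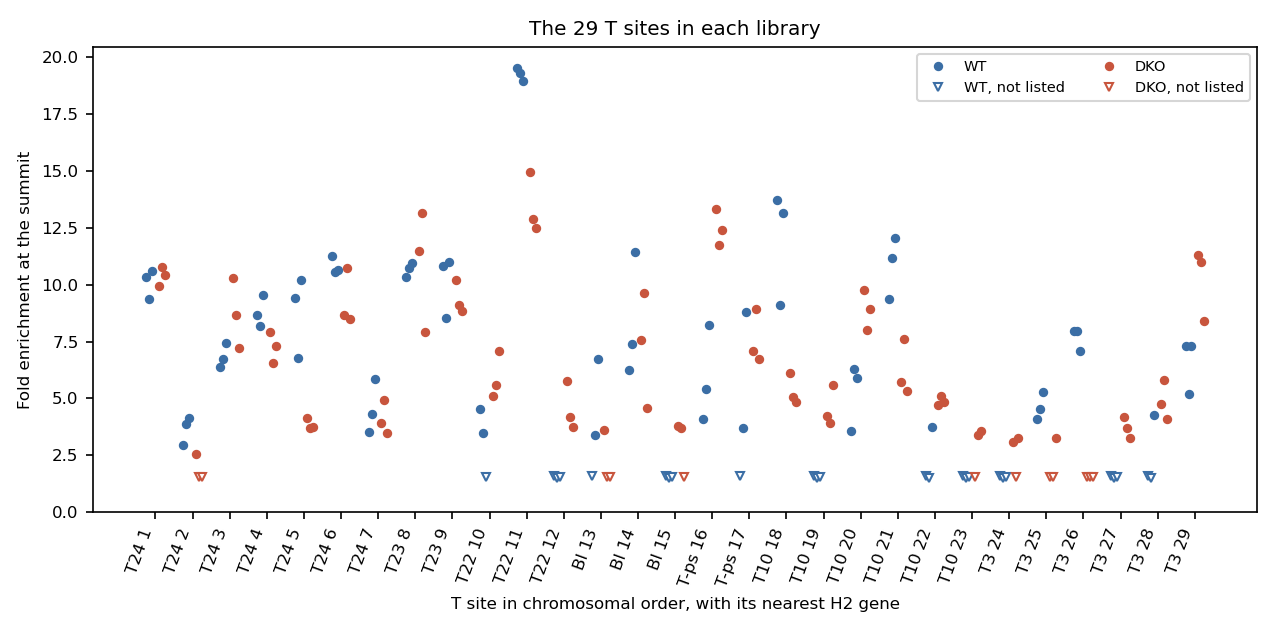
Fold enrichment at the summit (y axis) of the 29 T sites in chromosomal order (x axis, nearest H2 gene and running number) in each library. Points are libraries, and triangles at the lowest listed value of the library mark sites not listed there; sites with WT above DKO (T24 5, T10 18, T3 26) alternate with sites with DKO above WT (T-ps 16, T10 20, T3 29).

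Many T sites come in pairs. A BLAST search of the windows against the reference of the region found 7 pairs in T, 1 of them with the site just beyond the limit of H2-T10, in which the most similar stretch of one site lay at the other, with 89.1 to 96.6% identity. In 5 of them a site at H2-T23 or H2-T22 was matched with one at H2-T-ps or H2-T10 that lay 78883 to 79037 bp on. In fold enrichment, groups were apart at both copies and in opposite directions in 4 of these 7 pairs, and in none were both apart in the same direction. Among the 17 other pairs, which include a window just beyond the limit of H2-M10.5, none had groups apart at both copies. The pairs were looked for after the values of the sites had been seen.

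The sequences of these pairs are shown because a read inside such a stretch can be told from its copy only by the bases that differ. The reads were paired, so a mate outside the stretch can also place a fragment. Gaps tell copies apart as well, and the stretches were chosen without them. Capitals mark the bases that differ. The window at H2-T-ps and the window 878 bp into H2-T23 share a run of 120 identical bases, at chr17:36110885-36111004 and chr17:36031855-36031974 (mm10, plus strand).
H2-T-ps and H2-T23: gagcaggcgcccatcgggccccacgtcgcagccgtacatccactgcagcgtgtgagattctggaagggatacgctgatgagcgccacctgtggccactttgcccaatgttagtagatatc

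The window between H2-T-ps and H2-T10 differed at 1 of 120 bases from its copy near H2-T22, chr17:36114452-36114571 against chr17:36035500-36035619.
BC023719: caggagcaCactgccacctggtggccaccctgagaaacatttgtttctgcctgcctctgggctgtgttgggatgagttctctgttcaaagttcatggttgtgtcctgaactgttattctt
Copy near H2-T22: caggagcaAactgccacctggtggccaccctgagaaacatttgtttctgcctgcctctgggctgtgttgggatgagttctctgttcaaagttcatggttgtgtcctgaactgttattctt

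The promoters of H2-T22 and H2-T10 differed at 5 of 120 bases, chr17:36042761-36042880 against chr17:36121478-36121597 (mm10, plus strand).
H2-T22: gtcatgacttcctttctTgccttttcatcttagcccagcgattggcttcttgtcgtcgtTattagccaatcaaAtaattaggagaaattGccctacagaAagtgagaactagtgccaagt
H2-T10: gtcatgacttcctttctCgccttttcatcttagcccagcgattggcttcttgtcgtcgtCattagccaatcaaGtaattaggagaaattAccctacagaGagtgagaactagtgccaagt

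The site upstream of H2-T3 differed at 9 of 120 bases from the site just outside the limit of H2-T10, chr17:36193692-36193811 against chr17:36132026-36132145.
H2-T3: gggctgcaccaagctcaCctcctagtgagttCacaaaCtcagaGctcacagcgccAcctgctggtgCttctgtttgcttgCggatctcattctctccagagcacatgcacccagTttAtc
Beyond H2-T10: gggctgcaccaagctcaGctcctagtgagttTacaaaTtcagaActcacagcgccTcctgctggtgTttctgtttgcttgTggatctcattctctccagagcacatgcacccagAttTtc

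In reads the opposition was weaker than in fold enrichment, since in each of these 4 pairs the pileups of 1 copy overlapped between the genotypes. In the H2-T22 and BC023719 pair (96.6% identical), the copy near H2-T22 had a pileup of 19 and 14 reads in 2 WT libraries, was not listed in WT replicate 3, and had 31, 34 and 36 in DKO. The pileups of its partner are given above. The share of the pair's reads at the first copy, with a copy that was not listed counted as 0, was 0 to 31.1% in WT and 47.7 to 65.5% in DKO. At the promoters of H2-T22 and H2-T10 (95.4% identical) the share at H2-T22 was 79.7 to 87.3% in WT and 61.7 to 65.0% in DKO, with H2-T22 pileups that overlapped and H2-T10 pileups that were higher in every DKO library. At the next pair, the copy in the intron of Gm6034 was listed in DKO only and its partner near H2-T10 (36123988 to 36124488) had 45, 42 and 59 reads in WT and 39, 48 and 27 in DKO. In the pair of H2-T3 and the site beyond H2-T10 (89.1% identical) both copies were listed in WT and the H2-T3 copy alone in DKO, and the sum was 65, 58 and 76 reads in WT and 48, 43 and 25 in DKO when a copy that was not listed counted as 0. With that copy at the lowest pileup of the library's list the DKO sums were 58, 53 and 33, and the highest equalled the lowest WT sum, so an order of the genotypes in the sum depends on that value.

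At the pairs of H2-T23 and H2-T-ps the groups were apart at the H2-T-ps copy only. The first copy had 47, 49 and 56 reads in WT and 72, 84 and 42 in DKO, and the second had 13, 18 and 27 in WT and 71, 61 and 50 in DKO. Their sum was 60, 67 and 83 reads in WT and 143, 145 and 92 in DKO, so the pair as a whole was higher in every DKO library. The share at the H2-T23 copy was 67.5 to 78.3% in WT and 45.7 to 57.9% in DKO. At the start sites of the same genes the sums were 49, 50 and 85 in WT and 102, 105 and 74 in DKO, which overlap. There the share at H2-T23 was 65.9 to 100% in WT, with the unlisted copy as no reads, and 55.2 to 63.5% in DKO. Sums of the H2-T22 and BC023719 pair were 65, 45 and 46 in WT and 65, 61 and 55 in DKO. Pileups are not scaled to depth, and DKO replicate 3 was the shallowest library.

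**Figure D4:**
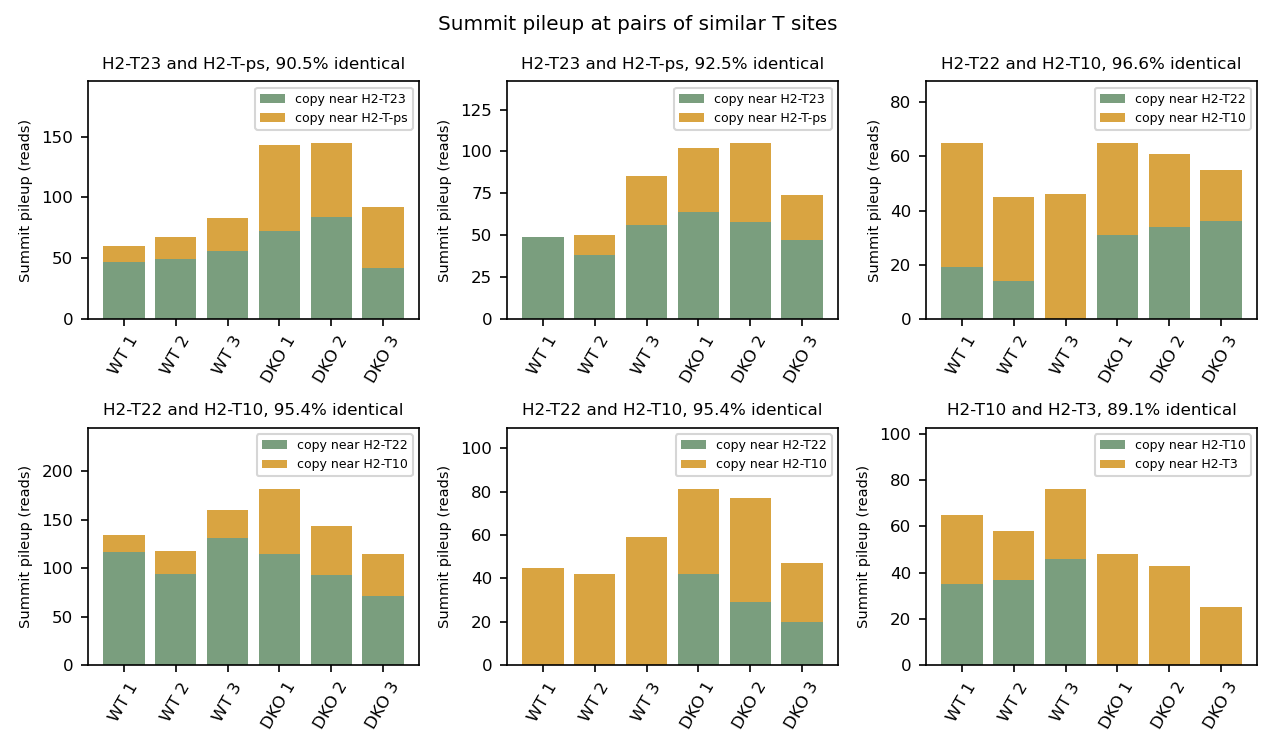
Summit pileup in reads (y axis) at 6 pairs of similar T sites in each library (x axis), stacked by copy; a copy that was not listed counts as 0. In each of the 6 pairs the share of reads at the first copy does not overlap between WT and DKO. In the first pair of H2-T23 and H2-T-ps the stack itself is taller in the 3 DKO libraries. In the pair of H2-T10 and H2-T3 it is lower in them with the unlisted copy at 0.

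The local background was also compared at the T sites. It is the number of reads that the peak caller expected at the summit from the surroundings, divided here by the level of the library, so that 1 means no excess. At the H2-T-ps window it was 1.00 in each WT library and 1.71, 1.71 and 1.52 in DKO. At the BC023719 window it was 1.00, 1.00 and 1.07 in WT and 1.85, 1.79 and 1.56 in DKO. At these 2 of the 76 H2 sites listed in all 6 libraries the mean was at least 1.5 times higher in DKO with groups apart, a rule met by 0.0346% of all such windows, and no H2 site met it in the other direction, against 0.118%. At H2-T23 the ratio was 1.499, 1.43 and 1.73 in WT and 2.08, 2.17 and 2.17 in DKO. Upstream of H2-T10 it was 1.67, 1.18 and 1.69 in WT and 2.27, 2.13 and 1.98 in DKO. At H2-T24 the mean was lower in DKO, with 1.68, 1.54 and 1.46 against 2.17, 1.67 and 2.31 in WT, but WT replicate 2 fell among the DKO values. At H2-Bl and H2-T3 values were 1.00 to 1.58 in either genotype. At the H2-T22 promoter it was 2.08, 1.56 and 2.47 in WT and 2.62, 2.51 and 2.33 in DKO, which overlap. Its part in the fold enrichments was not tested. The measure was chosen after the values were seen.

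**Figure D5:**
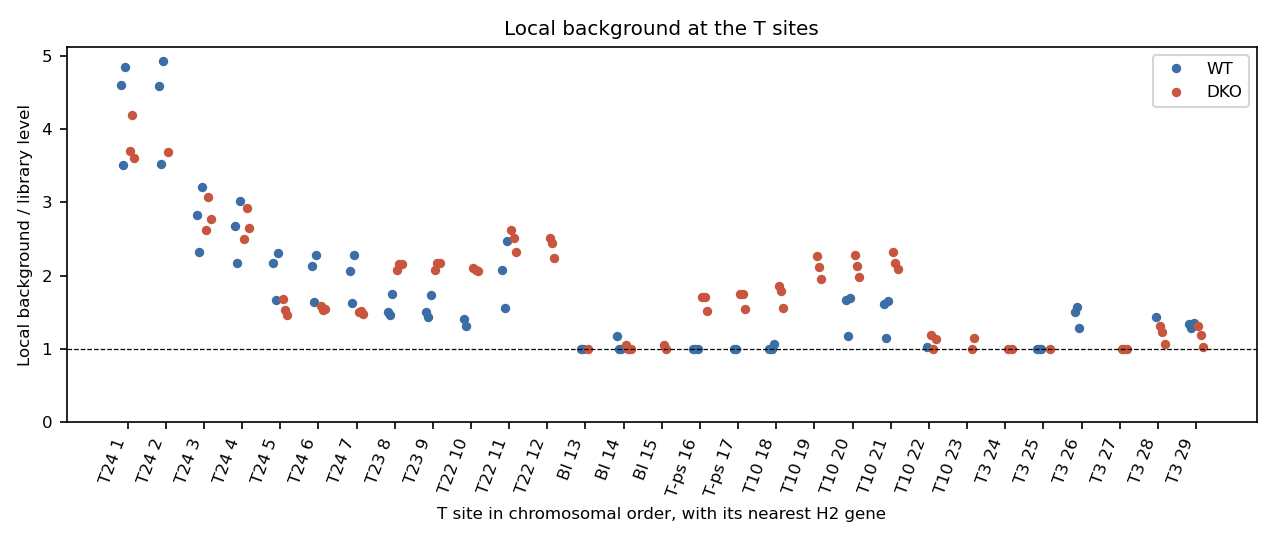
Local background divided by the level of the library (y axis) at the 29 T sites in chromosomal order (x axis), for each library in which the site was listed; the dashed line is 1. Every DKO value lies above every WT value at T23 8 to T22 10 and, where both were listed, at T-ps 16 to T10 21, and the genotypes overlap at T22 11.

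The uniqueness of the T sites was set beside their values as a description, and its part in them was not tested. The share of words found once was 84.8% in the median of the 18 T sites with groups apart and 87.8% in that of the 11 others. Among T sites with at least 90% of their words found once, groups were apart at 6 of 11, and among the rest at 12 of 18. Outside T the same counts were 9 of 82 and 1 of 15, and over all windows of the genome groups were apart at 16.4%. The near identical Q promoters are among those 15. In the H2-T24 promoter and the H2-T3 sites at the UTR and upstream, all words occur once.

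Strain sequence could be compared where the reference assembly holds contigs of other strains. Contigs of 129S1/SvImJ, 129S6/SvEvTac and 129X1/SvJ, strains of 1 family, together spanned all 97 H2 sites in the test outside T and 13 of the 29 T sites, from H2-T-ps on, and contigs of NOD/ShiLtJ and NOD/MrkTac spanned 112 of the 126. All words of the window were present in the contigs of that family at 13 of 13 K sites, 41 of 42 class II sites, 5 of 6 D sites, 16 of 17 Q sites and 9 of 19 M sites. At the 13 spanned T sites they were all present at 5, each of them nearest to H2-T-ps or H2-T10. At H2-T3 the share of words present was 36.9% at the UTR site, 42.3% at the intron site and 0% upstream. In NOD the share was 100% at 6 of 6 D sites and 9 of the 16 spanned Q sites and in the median 71.2% over the class II sites and 33.5% over the T sites, of which none was complete. The pair of 120-base stretches at each of the H2-T3 sites shows in capitals the bases that differ in these contigs, at chr17:36187724-36187843 for the intron and chr17:36193642-36193761 upstream.
Intron, reference: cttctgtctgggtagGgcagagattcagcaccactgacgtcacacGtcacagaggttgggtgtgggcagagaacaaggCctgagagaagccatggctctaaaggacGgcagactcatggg
Intron, contig: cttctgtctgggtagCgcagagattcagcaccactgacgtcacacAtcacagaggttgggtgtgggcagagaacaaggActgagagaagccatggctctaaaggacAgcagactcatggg
Upstream, reference: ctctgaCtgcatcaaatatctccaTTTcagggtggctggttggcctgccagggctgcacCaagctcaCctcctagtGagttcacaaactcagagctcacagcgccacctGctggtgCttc
Upstream, contig: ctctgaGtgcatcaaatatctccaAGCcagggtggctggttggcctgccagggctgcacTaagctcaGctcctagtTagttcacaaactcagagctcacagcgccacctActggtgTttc

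The intron stretch differed at 4 of 120 bases and the upstream stretch at 9. Of the 8 spanned T sites with words missing from these contigs groups were apart at 7, and of the 5 with all words present at 4. Outside T the counts were 3 of 13 and 7 of 84, and over all windows of the genome groups were apart at 16.4%. The labels give C57BL/6 for both genotypes, while the study's list of mice gives the DKO line a congenic name (B6.Cg), which stands for donor segments on a C57BL/6 background. The files hold no base calls, so the haplotype of the DKO libraries at this locus was not tested, nor was the part of strain sequence or gene copy number in the T values.

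The partners of the class I molecules outside the H2 genes were open as well. Of 14 genes of the class I peptide supply, all had a promoter window, 6 with a negative and 8 with a positive log2 change, a median of 0.04, and none passed the test. B2m, the light chain, had fold enrichments of 21.4, 17.4 and 21.2 in WT and 17.6, 16.4 and 15.8 in DKO. The window shared by Tap1, a subunit of the peptide transporter, and Psmb9, a subunit of the immunoproteasome, lies between class II genes of the complex. It had 16.8, 14.99 and 18.4 in WT and 12.2, 9.99 and 9.46 in DKO, so the genotypes did not overlap, with a log2 change of -0.51 ± 0.12 (SE) and a limma adjusted p of 0.153. Of 3 genes of the class II pathway, Cd74, the invariant chain, and Ifi30 had a window in all libraries and Ctss had none. Of 11 regulators, 10 had a window and none passed. Nlrc5, the transactivator of class I genes, had 9.43, 9.47 and 12.5 in WT and 11.7, 15.3 and 11.5 in DKO (log2 change 0.47 ± 0.13 SE, limma adjusted p = 0.176). Ciita, the transactivator of class II genes, had no window within 1 kb of a start site.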

How the data were processed

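ATAC-seq was measured in 3 WT and 3 DKO libraries of day 0 preadipocytes. According to the study's methods and the submitters' processing notes, the authors demultiplexed paired reads of 50 bases with bcl2fastq 2.17, trimmed them with cutadapt 1.18, aligned them to mm10 with Bowtie2 2.3.4.3, removed duplicates and mitochondrial reads, and called peaks of Tn5 cut sites in each library alone with MACS2, keeping the best ranked peaks up to a fixed number and removing a blacklist. How reads that fit several places were treated is not given in the sources used here. The deposited lists give per summit the fold enrichment, a ratio of pileup to local background, and the authors' -log10 p and -log10 q. Total read counts were not used here, so depth shows only in the lowest pileup of a list.

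The pileup of each summit was recovered from its fold enrichment and -log10 p under the Poisson model of MACS2 and in each library a whole-number pileup gave back the -log10 p within 0.001 for 100% of summits. Windows of 250 bp to either side of a summit with a q under 0.01 in at least 2 libraries were tested with limma 3.58.1 (R 4.3.3) on quantile-normalised log2 fold enrichment. The test was two-sided and let the variance follow the mean, and p-values were adjusted after Benjamini-Hochberg across every tested window of the genome, with calls at an adjusted p under 0.05. A library without a summit in a window was set to the lowest fold enrichment of its list, so fold changes, SE and p-values of such windows depend on that value. In a second fit only windows listed in all 6 libraries entered. The scripts were tested on simulated data. Words of 50 bases were counted over the whole mm10 reference, similar stretches were found with BLAST 2.17.0 and strain contigs were placed with minimap2 2.31-r1302. Python 3.11.15 was used for the tables.

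The members, lists and tests were chosen with earlier results of these data known. The rule for names took H2 genes with a tested window within 1 kb of a start site, sites called in either fit, sites listed in 3 libraries of 1 genotype and 0 of the other, and the 2 largest rises and falls of each subregion. The T sites with groups apart were added to these because of their values. Of the 62 sites taken in this way, the text gives those that its comparisons turn on. The sites at the limit of 10 kb, the pairs of copies, the local background and the fit on -log10 p were added after the values were seen. No samples were left out.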

Additional observations from a re-analysis of the deposited data

How the results depend on the processing

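Of 62 named sites, the 26 with groups apart or called kept the direction of their log2 change under each of the 16 alternatives that gave them a value. This is no sign of stability, because the replicate block and the fit without the trend cannot change a log2 change, and groups that lie apart leave little room for a change of sign when 1 library is dropped. Counting the same alternatives, 47 of 957 values of the named sites changed sign, in 20 other sites with adjusted p of at least 0.607. The count of H2 sites called, 0 lower and 0 higher in DKO, moved to 2 and 3 with windows listed in all 6 libraries, 1 and 1 with median centring, 2 and 4 without the trend and 1 and 1 with windows of 500 bp to either side. It moved to 2 higher with windows of 150 bp to either side and to 1 higher with -log10 p in place of fold enrichment, an alternative chosen after seeing the data. Without scaling, the median log2 change of all windows was -0.14. Without 1 library in turn, the counts ran from 0 to 0, in fits that called at most 1 lower and 6 higher windows in the genome and so say nothing of stability. The causes of these moves were not tested.

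Of sites listed in 3 WT and 0 DKO libraries, 1 in the report, there were 2 with these narrow windows, 2 among the 150000 best ranked summits and 0 among the 50000 best, and 1 to 3 without 1 library. Of sites listed in 3 DKO and 0 WT libraries, 4 in the report, there were 7 with the narrow windows, 2 in gene bodies only, 2 with at least 90% of words found once and 2 among the 150000 best, and 4 to 7 without 1 library: 7 without WT replicate 3 and 7 without DKO replicate 2. The mean number of H2 summits per library, 219, was 68.5 in gene bodies only and 117 within 2 kb, by construction. WT and DKO, which were apart at 10 kb, overlapped at both of these limits, with 61 to 76 and 68 to 71 in gene bodies. Within 2 kb the numbers were 106 to 121 and 119 to 124.

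With the replicate number as a block the counts were 0 and 0, but that fit called 0 of 179249 windows in the genome, so it says nothing of stability. After normalisation, the deviations of same-numbered libraries from their group means correlated at 0.00541, -0.0115 and -0.00715, so no shared deviation was seen. This cannot tell whether libraries with the same number were prepared together, which no source used here says. The capped lists limit what depth can show, because a summit under the lowest pileup of a list cannot be told from an absent one.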

Other observations

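The endothelial markers, another cell type that fat can hold, had a promoter window for 4 of 4 genes, listed for 3 genes in each WT library and for 4 in each DKO library. Their summed fold enrichment, with a gene that was not listed counted as 0, was 33.3 to 42.1 in WT and 33.5 to 40.3 in DKO, which overlap. Cdh5, an endothelial cadherin, was listed in 0 WT and 3 DKO libraries, at 3.91, 7.09 and 4.26, and Pecam1, an adhesion molecule, had 16.9, 12.2 and 17.2 in WT and 11.1, 11.8 and 10.3 in DKO, with limma adjusted p of 0.142 and 0.297. Over the windows from the K to the M subregion that are no H2 site, groups were apart on the quantile-normalised scale at 74 of 380, and between H2-T24 and H2-T3 at 5 of 10, against 16.4% of all windows. Of those 10, 3 were listed in 3 WT and 0 DKO libraries and 2 in 3 DKO and 0 WT. These are the 5 with groups apart, so in each of them the values of 1 genotype were set at the lowest of a list. At a limma adjusted p under 0.05, 1 of the 10 was lower and 1 higher in DKO. The lower one is the window just beyond the limit of H2-T10 described above. These windows belong to other genes or to none and are given as values.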
